A study of Mus musculus with 48 samples.

Results

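The genes that encode the chains of collagen, 44 of the 56748 gene identifiers in the count files, were followed across 48 RNA-seq libraries of the mouse, from its liver, its brown fat (BAT) and its epididymal white fat (eWAT). A gene was a member where its Ensembl identifier carried a mouse symbol made of Col, a number, the letter a and a number. By class, 11 members encode fibrillar collagens, 6 encode type IV collagen of basement membranes and 27 encode other collagens. The mice were male littermates, hepAGT+/+ (here WT) or hepAGT-/- (here KO, with angiotensinogen deleted in hepatocytes). All of them had been fed a Western diet (milk fat at 21%, cholesterol at 0.2%) over 12 weeks. They lived either at 20 to 22 °C, called RT for room temperature, or at 30 °C, called TN for thermoneutrality. Each tissue thus had 4 groups, WT RT, KO RT, WT TN and KO TN, with 4 libraries each, and the diet was the same in all of them. The promoter that drove the deletion, the strain and the age of the mice are not given in the sources used here. All groups ate the Western diet, so no value below compares it with chow.

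Most collagens are secreted proteins, and some are transmembrane. Their chains wind around each other into a rigid helix. Fibrillar collagens (types I, III and V among them) assemble into the banded fibres that give tissue its tensile strength, type IV collagen forms the sheet-like network of the basement membrane that wraps adipocytes and blood vessels, and type VI collagen forms beaded filaments that link cells to both. In fat, fibroblasts, vascular cells and adipocytes make these chains, and in liver the stellate cells are the main source of fibrillar collagen while hepatocytes make collagen XVIII, the precursor of endostatin.

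Libraries held 23.7 M to 43.7 M counts assigned to genes, and collagen genes took 0.0886% to 0.167% of them in liver, 0.0512% to 0.335% in BAT and 0.331% to 0.957% in eWAT. After a filter on low counts, 31 members were tested in liver, 32 in BAT and 33 in eWAT. Values are CPM, counts scaled to library size, with TMM scaling within a tissue unless stated otherwise. A gene is said to rise or fall at a Benjamini-Hochberg adjusted p under 0.05 by edgeR's quasi-likelihood test. The adjustment ran over all genes tested in that tissue. The labels number the 4 libraries of a group as biological replicates. Agt, the deleted gene, averaged 368 ± 75.5 CPM (SD, n = 4) in WT RT liver and 167 ± 26.7 in KO RT liver. It fell by 1.14 on the log2 scale at RT (SE 0.18, adjusted p = 0.0096) and by 1.29 at TN (SE 0.18, adjusted p = 0.00113). Its transcript was thus lower in KO liver but still counted. The marker genes of hepatocytes were abundant in liver, those of brown adipocytes in BAT, and general adipocyte markers in both fat depots. In 5 BAT libraries, the summed CPM of 8 skeletal muscle genes passed 1000 (KO RT replicates 14 and 19, WT TN replicates 6 and 24, KO TN replicate 2), against as little as 1.46 in others. In eWAT, WT RT replicate 18 held epididymis transcripts at 985 summed CPM, and WT TN replicate 8 held the fewest mesothelial transcripts (2.04 summed CPM). The collagen counts in BAT and eWAT are also given without libraries in doubt. Those were the 5 BAT libraries rich in muscle transcripts and, in eWAT, the library with epididymis transcripts and a WT TN library. That WT TN library was chosen by a marker sum not reported here, not by its mesothelial transcripts. In bulk tissue, fewer cells of a type and less RNA per cell cannot be told apart.

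Of the 44 members, 35 had an entry in the RefSeq table of promoters (GRCm38.p6). The 250 bases before the annotated start of 4 of them are given here because these genes, 2 fibrillar, 1 multiplexin and 1 type VI, all rose in BAT of both genotypes at thermoneutrality. They were chosen after their values were seen. Capitals mark 3 motifs, each searched on both strands. The CCAAT box was searched as CCAAT. The TATA box was searched as TATAAA. The GC box, bound by Sp1, was searched as GGGCGG.
Col1a2, chr6:4505368-4505617, plus strand: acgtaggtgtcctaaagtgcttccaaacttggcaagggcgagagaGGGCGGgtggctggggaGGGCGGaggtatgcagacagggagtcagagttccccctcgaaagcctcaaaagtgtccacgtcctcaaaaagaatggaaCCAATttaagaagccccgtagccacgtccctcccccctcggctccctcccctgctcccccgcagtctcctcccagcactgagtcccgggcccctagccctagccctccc
Col3a1, chr1:45311288-45311537, plus strand: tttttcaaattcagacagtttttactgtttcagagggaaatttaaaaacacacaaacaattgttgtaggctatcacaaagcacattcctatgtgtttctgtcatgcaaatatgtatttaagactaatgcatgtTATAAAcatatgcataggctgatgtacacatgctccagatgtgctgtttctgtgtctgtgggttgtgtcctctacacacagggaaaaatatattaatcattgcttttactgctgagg
Col15a1, chr4:47207762-47208011, plus strand: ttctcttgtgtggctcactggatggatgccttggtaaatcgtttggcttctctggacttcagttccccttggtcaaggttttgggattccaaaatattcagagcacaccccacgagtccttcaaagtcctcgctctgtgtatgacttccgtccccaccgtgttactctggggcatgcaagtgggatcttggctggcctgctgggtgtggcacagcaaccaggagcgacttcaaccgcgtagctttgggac
Col6a1, chr10:76726045-76726294, minus strand: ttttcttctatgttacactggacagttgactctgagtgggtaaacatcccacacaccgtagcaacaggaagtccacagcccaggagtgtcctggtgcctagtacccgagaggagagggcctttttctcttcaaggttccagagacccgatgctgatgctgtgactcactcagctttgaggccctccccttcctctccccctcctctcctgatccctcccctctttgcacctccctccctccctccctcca
Col1a2 held the CCAAT box 109 bases before its start and the GC box 205 and 188 bases before it, with no overlap between the matches, and Col3a1 held the TATA box 117 bases before its start. The windows of Col15a1 and Col6a1 held none of the 3, which says only that these letters are not in these windows. Over all 32851 promoter windows of this length, 33.8% held the CCAAT box, 12.4% the TATA box and 32.7% the GC box. Among the 38 windows of collagen genes, 13, 5 and 22 held them. Col4a1 and Col4a2, the paired chains of the common type IV molecule, lie head to head on chromosome 8, on the minus and plus strands, with start sites 21 bases apart. Col4a5 and Col4a6 are also head to head, on chromosome X, with start sites 1343 bases apart.

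The fat depots shared their leading collagens, and liver had another. Per kilobase of exon, Col4a1 was the most abundant member in eWAT (167 CPM per kb over 16 libraries) and in BAT (48.8), followed in both by its partner Col4a2 (137 and 37.7). In eWAT the next were Col6a1 (126), Col15a1 (108) and Col3a1 (90.7), and in BAT Col3a1 (24.9), Col6a1 (12.4) and Col27a1 (10.9). Liver was led by Col18a1 at 107 CPM per kb, far above Col5a3 (9.48), Col27a1 (9.33) and Col14a1 (6.45). Type IV chains made up 40.1% to 50.1% of collagen CPM per kb in the 4 BAT groups and 28.8% to 33.2% in eWAT, but 3.10% to 5.73% in liver, where the classes outside the fibrils and type IV made up 76.1% to 80.5%. The members without a count in any liver library were Col2a1, Col9a1, Col10a1, Col11a1, Col19a1 and Col26a1, and eWAT had none of Col19a1.

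Across tissues, 38 members were tested in 1 fit of all 48 libraries. The CPM in this paragraph are scaled over all 48 libraries together. They therefore differ from the levels given elsewhere, which are scaled within a tissue. Between eWAT and liver, 26 were higher in eWAT and 9 higher in liver, where 38.3% and 35.5% of all genes were so called, and the members' median log2 difference was 2.78 against 0.05 over all genes. Between BAT and liver, 21 were higher in BAT and 4 in liver (37% and 31.6% of all genes), with a median of 1.48 against 0.08. BAT against eWAT gave 8 higher and 22 lower (29.2% and 31.1% of all genes), with a median of -1.48 against -0.02. Col15a1, a multiplexin of the basement membrane zone, averaged 7.92 ± 2.45 CPM in liver and 554 ± 99.7 in eWAT (SD, n = 16), a log2 difference of 6.14 (SE 0.14, adjusted p = 1.8e-34). The other multiplexin went the opposite way. Col18a1 averaged 878 ± 186 CPM in liver, 27.1 ± 16.7 in BAT and 229 ± 50.4 in eWAT, so that BAT differed from liver by -5.22 (SE 0.13, adjusted p = 5.09e-33) on the log2 scale. Col27a1, a fibrillar chain, was at 141 ± 37.9 CPM in liver and 151 ± 42.3 in BAT but 2.56 ± 1.09 in eWAT. Liver and BAT differed in Col27a1 by 0.10 (SE 0.15, adjusted p = 0.616), less than the spread, and BAT exceeded eWAT by 5.87 (SE 0.19, adjusted p = 1.46e-26). Col6a5, a type VI chain, exceeded liver in eWAT by 7.57 (SE 0.58, adjusted p = 1.47e-14). The members of the type IV pair Col4a1 and Col4a2 had almost equal differences between eWAT and liver, 4.89 (SE 0.11, adjusted p = 1.8e-34) and 4.93 (SE 0.13, adjusted p = 1.3e-31).

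**Figure D1:**
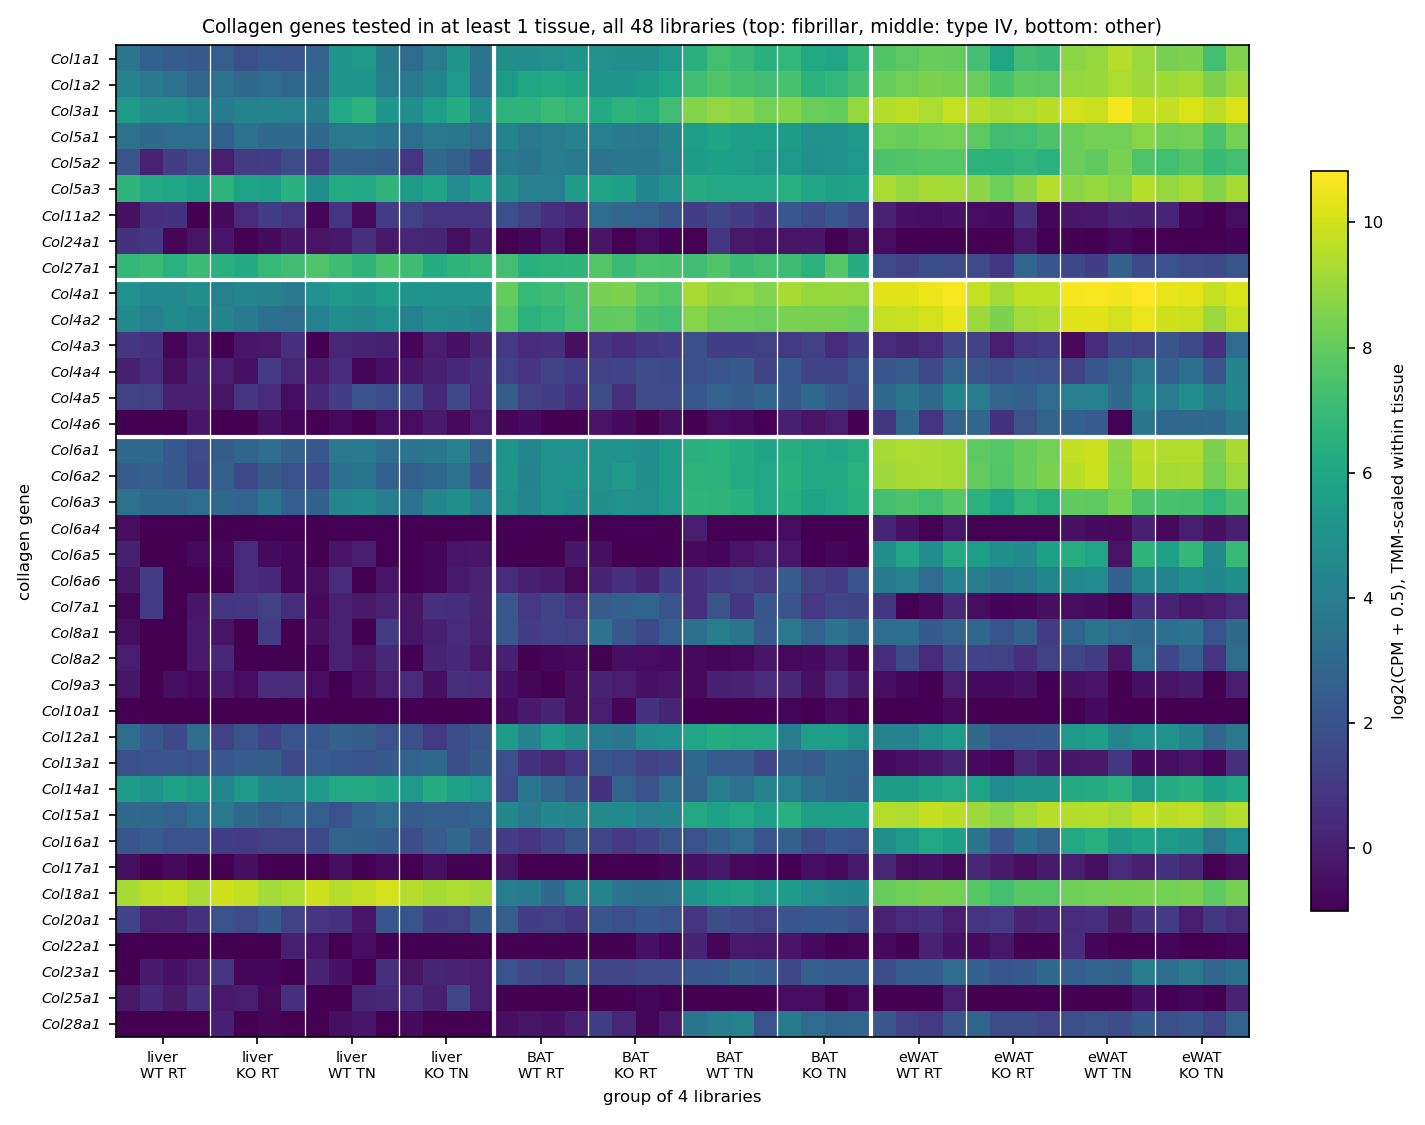
Heat map of log2(CPM + 0.5) for the 38 collagen genes tested in at least 1 tissue (rows, in the classes fibrillar, type IV and other) in all 48 libraries (columns, in groups of 4 by tissue), scaled within each tissue. Col18a1 stands out in liver, Col27a1 in liver and BAT, and the type IV pair Col4a1 and Col4a2 in both fat depots.

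Summed within a class, collagen CPM showed the same layout (mean ± SD, n = 4). In BAT, the fibrillar sum was 372 ± 31.3 in WT RT, 424 ± 50.6 in KO RT, 1009 ± 139.9 in WT TN and 855 ± 159 in KO TN. The type IV sum in BAT was 318 ± 113, 495 ± 123, 817 ± 150.5 and 858 ± 78.2 in the same order, and the sum of the other classes 175 ± 32.5, 189 ± 24.6, 488 ± 65.0 and 405 ± 47.6. In all 3 classes every TN library of BAT lay above every RT library. As log2 CPM, the BAT means ran from 8.53 ± 0.13 in WT RT to 9.97 ± 0.20 in WT TN for the fibrillar sum, from 8.25 ± 0.48 to 9.66 ± 0.26 for type IV and from 7.43 ± 0.29 to 8.92 ± 0.20 for the others. In eWAT, the fibrillar sum was 2392 ± 126 in WT RT, 1794 ± 311 in KO RT, 3353 ± 524 in WT TN and 2757 ± 560.1 in KO TN. There the type IV sum was 2466 ± 418, 1332 ± 242, 2891 ± 270.1 and 2037 ± 419, and the other classes summed to 2655 ± 177, 1496 ± 289, 3039 ± 465 and 2527 ± 557. KO RT was the lowest eWAT group in each class, and none of its libraries reached the WT RT range (1394 to 2130.2 against 2293 to 2569.7 for the fibrillar sum). As log2 CPM, eWAT of WT RT and KO RT stood at 11.22 ± 0.07 and 10.79 ± 0.26 for the fibrillar sum, 11.25 ± 0.24 and 10.36 ± 0.29 for type IV, and 11.37 ± 0.10 and 10.53 ± 0.29 for the others. In liver, the fibrillar sum was 252 ± 41.8 in WT RT, 222 ± 42.8 in KO RT, 336 ± 56.1 in WT TN and 254 ± 31.7 in KO TN, with overlapping ranges. The type IV sum in liver was 50.5 ± 5.54, 32.6 ± 5.25, 67.2 ± 13.0 and 57.7 ± 3.08, lowest in KO RT, and as log2 CPM 5.65 ± 0.15, 5.01 ± 0.24, 6.05 ± 0.29 and 5.85 ± 0.08. The sums of a class follow its most abundant chains, and no test was made on them.

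**Figure D2:**
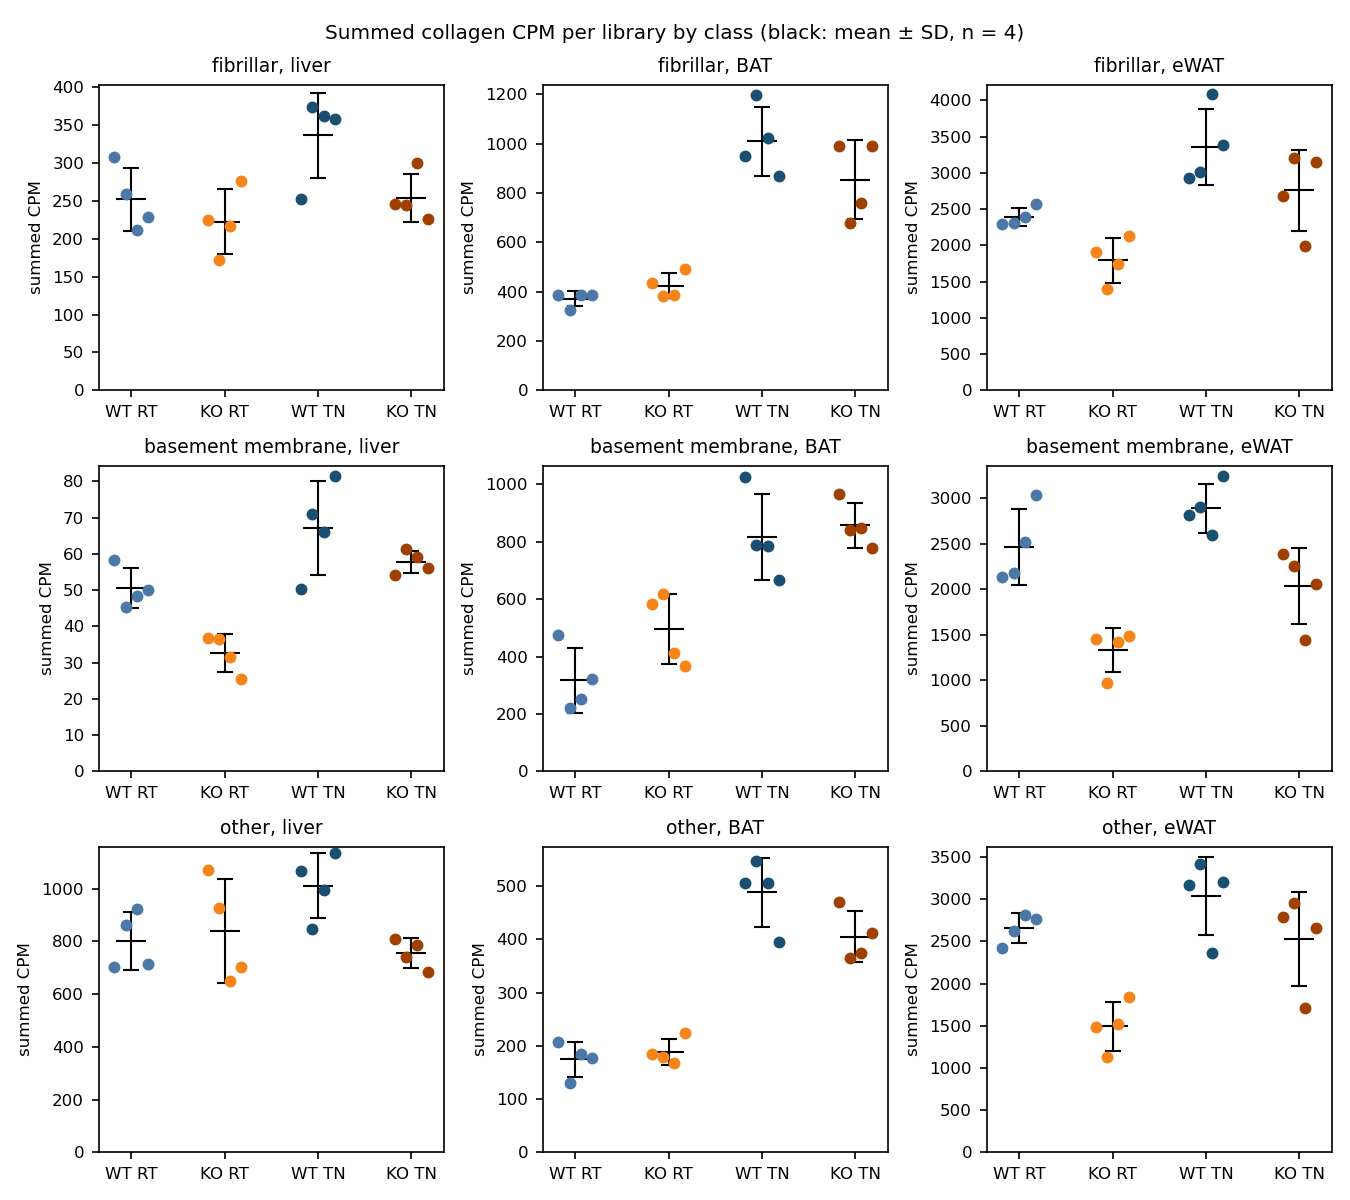
Summed CPM of fibrillar, type IV (basement membrane) and other collagen genes in each library (points) of the 4 groups, for liver, BAT and eWAT, with the mean and SD of 4 libraries in black and each vertical axis from 0. In BAT every TN point lies above every RT point in all 3 classes, and in eWAT every KO RT point lies below every WT RT point.

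Housing at thermoneutrality was accompanied by higher collagen expression in BAT. In WT mice, 22 of the 32 members tested rose from RT to TN and 1 fell, where 15.9% of all genes rose and 16.7% fell, and the members' median log2 change was 1.49 against 0.11 over all genes. The groups did not overlap, TN above RT, for 20 members, where 12.9% of all genes did so. By class, 6 of 9 fibrillar members rose, 4 of 5 type IV members, and 12 of 18 others, among which 1 fell. The member that fell was Col10a1, near the detection limit and at 0 in all WT TN libraries. The members tested also include Col22a1, likewise near the detection limit and at 0 in all WT RT libraries. Under a stricter filter on low counts, 22 members rose and 0 fell in WT. In KO mice 13 of 32 rose and none fell (6.64% and 8.52% of all genes), with a median of 0.83 against 0.04. Without the 5 BAT libraries rich in muscle transcripts, an alternative added after seeing the data, 19 rose in WT and 11 in KO and none fell in either.

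Type I collagen, the bulk of fibres in most connective tissue, is built from Col1a1 and Col1a2. In BAT, CPM of Col1a1 was 27.3, 28.8, 31.5 and 35.3 in the WT RT libraries, 29.1, 29.4, 31.4 and 41.3 in KO RT, 89.0, 90.6, 124 and 151 in WT TN and 61.1, 72.1, 113 and 115 in KO TN. Every TN library exceeded every RT library, and the genotypes overlapped at each temperature. Col1a1 rose by 1.89 (SE 0.22, adjusted p = 1.02e-05) on the log2 scale in WT mice and by 1.46 in KO mice (SE 0.21, adjusted p = 0.000192). CPM of Col1a2 was 42.6, 59.8, 60.5 and 72.3 in the WT RT libraries, 35.7, 36.9, 43.1 and 60.4 in KO RT, 144, 146, 168 and 196 in WT TN and 95.1, 111, 159 and 168 in KO TN. Col1a2 rose by 1.48 (SE 0.21, adjusted p = 7.99e-05) in WT and by 1.60 in KO, again with no RT library as high as any TN library. Type III collagen, the fine reticular fibre that co-assembles with type I, had the highest fibrillar level per kb in BAT. CPM of Col3a1 was 97.7, 102, 110.1 and 134 in the WT RT libraries, 75.0, 87.6, 99.9 and 147 in KO RT, 322, 395, 430.3 and 473 in WT TN and 259, 288, 397 and 495 in KO TN. The RT and TN ranges were apart in both genotypes, and Col3a1 rose by 1.87 (SE 0.23, adjusted p = 1.93e-05) in WT and by 1.81 in KO (SE 0.23, adjusted p = 4.45e-05). The type V chains, which start fibrils and limit their width, moved with them: in WT mice Col5a1 rose by 1.62, Col5a2 by 1.73 and Col5a3 by 1.45. The adjusted p of Col5a2 in WT was 1.32e-06, with 11.7, 13.9, 14.4 and 15.4 CPM in WT RT and 40.0, 44.2, 48.9 and 50.6 in WT TN, and the KO libraries stood at 10.4, 11.7, 12.0 and 16.8 at RT and 30.4, 32.9, 39.2 and 39.4 at TN. Col5a1 was at 13.1, 14.7, 16.3 and 18.7 CPM in KO RT and 32.1, 32.6, 39.7 and 46.0 in KO TN. In KO mice Col5a1 and Col5a2 rose by 1.26 and 1.48, and the change of Col5a3 was 0.70 (SE 0.31, adjusted p = 0.151). The fibrillar chains that did not pass in either genotype were Col11a2, Col24a1 and Col27a1. For Col27a1, abundant in BAT, the change was 0.47 (SE 0.24, adjusted p = 0.151) in WT and -0.40 (SE 0.24, adjusted p = 0.323) in KO.

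The type IV pair rose in WT mice, and in KO mice its call rested on single libraries. In BAT, CPM of Col4a1 was 119.6, 136, 164 and 258 in the WT RT libraries, 207, 236, 335 and 358 in KO RT, 381, 469, 479.7 and 614 in WT TN and 473, 490.2, 504 and 607 in KO TN. RT and TN libraries were apart within each genotype, although the upper KO RT libraries came close to the lowest WT TN library. Col4a1 rose by 1.52 (SE 0.24, adjusted p = 0.000139) in WT and by 0.87 in KO (SE 0.23, adjusted p = 0.016). CPM of Col4a2 was 97.1, 112, 156 and 207 in the WT RT libraries, 154, 171, 240.1 and 255 in KO RT, 273, 296, 308 and 401 in WT TN and 297, 335, 339.7 and 348 in KO TN. As for Col4a1, each genotype's TN libraries were above its RT libraries, and Col4a2 rose by 1.16 (SE 0.22, adjusted p = 0.000685) in WT and by 0.69 in KO. In KO neither passed without KO RT replicate 14, without KO RT replicate 19 or without the libraries rich in muscle transcripts (adjusted p up to 0.28 for Col4a1 and 0.408 for Col4a2), and Col4a2 was also lost without any 1 of the KO TN libraries (replicates 2, 3, 4 and 5). The highest WT RT library for Col4a1, replicate 12 at 258 CPM, also had the highest endothelial marker sum of its group (463 CPM, the others from 192 CPM), and the part of this in the result was not tested. Of the minor type IV chains, found in specialised basement membranes, Col4a4 and Col4a5 rose in WT mice by 0.98 and 1.17, but at low levels and with overlapping groups, and they passed in 17 and 8 of 23 alternatives. Leaving out any of the WT RT replicates 15 and 18 or the WT TN replicates 6 and 7 ended both calls. Col4a5 was also lost without WT RT replicate 17, WT TN replicate 1 or 24, KO RT replicate 9, 14 or 19, or KO TN replicate 2 or 4.

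Type VI filaments are built from Col6a1, Col6a2 and Col6a3. In BAT, CPM of Col6a3 was 20.6, 27.6, 30.4 and 32.0 in the WT RT libraries, 28.3, 30.4, 31.0 and 41.5 in KO RT, 66.3, 90.1, 103 and 105 in WT TN and 54.9, 66.4, 81.3 and 89.3 in KO TN. All TN libraries lay above all RT libraries. CPM of Col6a1 was 20.7, 31.3, 32.5 and 33.8 in the WT RT libraries, 27.8, 32.8, 33.1 and 45.4 in KO RT, 59.8, 78.8, 88.2 and 93.0 in WT TN and 61.5, 68.6, 81.2 and 82.0 in KO TN. CPM of Col6a2 was 18.7, 31.6, 34.0 and 35.2 in the WT RT libraries, 28.6, 33.2, 40.5 and 44.1 in KO RT, 65.5, 76.5, 96.1 and 98.7 in WT TN and 70.0, 72.7, 88.8 and 93.1 in KO TN. The TN libraries were the higher ones in each genotype for both genes. In WT mice Col6a1, Col6a2 and Col6a3 rose by 1.44, 1.49 and 1.72, and in KO mice by 1.08, 1.15 and 1.15. Both multiplexins, Col15a1 and Col18a1, rose in both genotypes. CPM of Col15a1 was 14.4, 20.5, 21.6 and 21.8 in the WT RT libraries, 17.2, 19.2, 24.0 and 24.4 in KO RT, 46.9, 54.3, 66.1 and 69.7 in WT TN and 47.1, 49.5, 50.6 and 86.7 in KO TN, with TN above RT throughout. Col15a1 rose by 1.60 (SE 0.21, adjusted p = 2.82e-05) in WT and by 1.47 in KO, and Col18a1 by 1.75 and 1.27. CPM of Col18a1 was 7.72, 13.4, 15.4 and 17.4 in the WT RT libraries, 9.88, 10.1, 10.6 and 19.0 in KO RT, 34.8, 40.4, 50.0 and 56.2 in WT TN and 22.7, 22.8, 30.6 and 43.8 in KO TN. The KO RT values include 1 library, replicate 9, well above its group. Without the libraries rich in muscle transcripts, Col18a1 in KO no longer passed (adjusted p = 0.19). The widest change among genes above 1 CPM was that of Col28a1, a type VI-related chain known from the sheath of peripheral nerve. CPM of Col28a1 was 0.203, 0.240, 0.268 and 0.521 in the WT RT libraries, 0.0734, 0.365, 0.715 and 1.77 in KO RT, 3.39, 11.2, 15.2 and 17.6 in WT TN and 6.47, 6.65, 8.22 and 14.4 in KO TN. Every TN library lay above every RT library, and Col28a1 rose by 5.29 (SE 0.76, adjusted p = 0.00015) in WT and by 3.60 in KO. Of the Schwann cell markers reported here, S100b fell in WT, with a log2 change of -1.04 (adjusted p = 0.00193), and Sox10 and Cdh19 did not pass; their part in the result was not tested. Col8a1, a short chain of vessel walls, with 1.74, 1.88, 2.08 and 4.07 CPM in WT RT and 4.11, 9.74, 11.6 and 15.3 in WT TN, rose by 2.05 (SE 0.45, adjusted p = 0.00262) in WT, while in KO its change was 0.68 (SE 0.44, adjusted p = 0.349). The fibril-associated Col12a1 and Col16a1 rose in WT by 1.11 and 1.28, the transmembrane Col13a1 (0.720, 1.11, 1.20 and 3.19 CPM in WT RT and 2.25, 4.86, 4.88 and 7.31 in WT TN) by 1.63 and Col6a6 by 1.61. None of these passed in KO. In WT, Col12a1 was lost without any of 7 libraries (WT RT replicates 15, 17 and 18, WT TN replicates 1, 6, 7 and 24), Col6a6 without any of 5 (WT RT replicates 15, 17 and 18, WT TN replicates 6 and 7), and Col16a1 without WT RT replicate 15 or WT TN replicate 7. Near the detection limit, Col10a1, a hypertrophic cartilage chain, was at 0 in all WT TN libraries and at 0.136, 0.209, 0.402 and 0.640 CPM in WT RT, at least 3.90-fold lower in WT TN against a floor of 3 counts per library. Col22a1 was at 0 in all WT RT libraries and at 0.0809, 0.360, 0.362 and 0.642 CPM in WT TN, at least 3.02-fold higher.

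**Figure D3:**
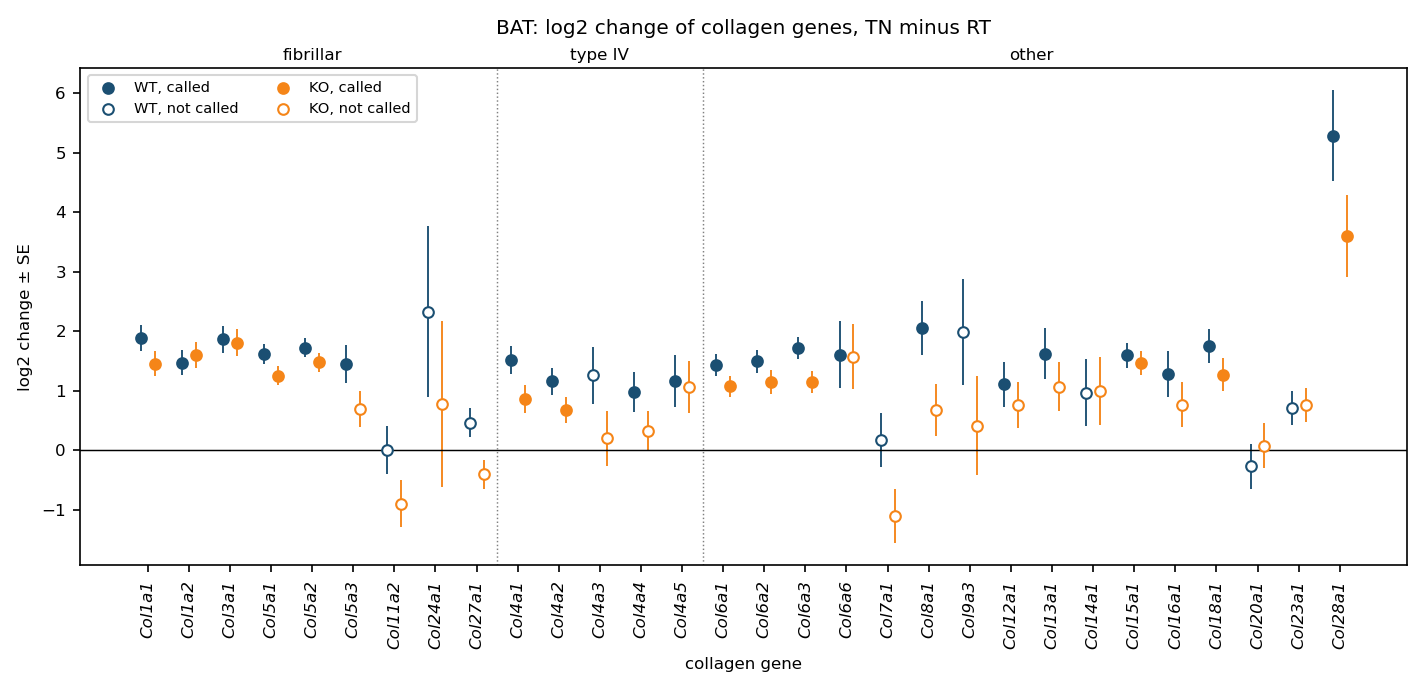
Log2 change from RT to TN in BAT (points, with the SE as bars) for the collagen genes tested, by class in WT and KO mice, with filled points for genes that passed at an adjusted p under 0.05. Most fibrillar, type IV and type VI chains lie above 0 in both genotypes, and Col28a1 lies highest. Col10a1 and Col22a1, at 0 in all libraries of a group, are not drawn.

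The housing effect on collagens was not shown to differ between genotypes. For 27 of 32 members the change was lower in KO than in WT (50.8% of all genes), with a median difference of -0.47 against -0.01 over all genes, but no member passed the test of the difference itself by edgeR, 4 had an unadjusted p under 0.05, and DESeq2 called none. At RT, no member differed between KO and WT BAT by edgeR, where 0.0887% of all genes did. At an unadjusted p under 0.05, 7 members were higher in KO, among them Col4a1, with a difference of 0.74 (SE 0.23, adjusted p = 0.122), and Col11a2, with 1.90 (SE 0.41, adjusted p = 0.0673). Col11a2 was at 0.730, 1.00, 1.91 and 3.22 CPM in WT RT and 3.95, 6.09, 7.02 and 8.70 in KO RT, with every KO library above every WT library. Endothelial markers had a median sum of 650 CPM in KO RT and 217 in WT RT, with overlapping ranges, and 0 of the 6 passed; their part in the Col4a1 difference was not tested. DESeq2 called these 2 members, and without WT RT replicate 12 edgeR called 7 higher in KO. Without the muscle-rich libraries 3 were higher and 1 lower. At TN no member, and 0% of all genes, differed between genotypes by edgeR. There 7 members had an unadjusted p under 0.05, and DESeq2 called none.

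Markers of several cell types moved with the BAT result. Over all genes in BAT, 15.9% rose and 16.7% fell in WT from RT to TN, against 6.64% and 8.52% in KO. In the test of whether the housing effect differed between genotypes, 0% of all genes passed, these markers included. The summed CPM of 7 fibroblast markers was 477 to 1138 in WT RT, 475 to 584 in KO RT, 1395 to 2081 in WT TN and 1000.5 to 2078 in KO TN. Of these 7, Cd34, Dpt, Gsn and Pdgfra rose in both genotypes and Clec3b, Ly6a and Pi16 passed in neither. Macrophage markers summed to 20.1 to 67.2 in WT RT and 80.7 to 129 in WT TN, and to 23.9 to 30.1 in KO RT and 55.9 to 72.9 in KO TN, and 4 of 5 rose in each genotype. Endothelial markers summed to 192 to 463 in WT RT, 421 to 1012 in KO RT, 296 to 897 in WT TN and 605 to 1016 in KO TN, and 4 of 6 rose in WT and none in KO. Pericyte and smooth muscle markers summed to 449 to 543 in WT RT, 469 to 657 in KO RT, 476 to 934 in WT TN and 652 to 813 in KO TN, and 6 of 7 rose in WT and none in KO. General adipocyte markers summed to 11611 to 18145 in WT RT, 12156 to 12757 in KO RT, 8407 to 11438 in WT TN and 8965 to 12126 in KO TN, and Fabp4 and Cidec fell in WT and none in KO. The brown adipocyte markers summed to 6851 to 14342 in WT RT, 7192 to 11695 in KO RT, 2161 to 5854 in WT TN and 1936 to 4315 in KO TN, and Ucp1, Cidea and Elovl3 fell in both genotypes. Hepatocyte transcripts in BAT summed to 17.0 to 395 CPM in WT RT and 83.6 to 678 in WT TN. In KO they summed to 9.09 to 783 at RT and 18.3 to 2166 at TN. These ranges overlapped within each genotype. The part of these markers in the collagen result was not tested, nor was that of hepatocyte transcripts in Col18a1, the leading collagen of liver. With the muscle markers as a covariate, also added after seeing the data, 22 members rose and 1 fell in WT and 13 rose in KO.

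In eWAT the collagens differed by genotype. At RT, 11 of the 33 members tested were lower in KO than in WT and none was higher, where 3.13% of all genes fell and 1.2% rose. The members' median log2 difference was -0.41 against -0.00 over all genes, and 11 had every KO library below every WT library (6.89% of all genes). The members that fell were 2 of 8 fibrillar members, 2 of 6 type IV members, 4 of 6 type VI members, 2 of 4 fibril-associated members and 1 of 2 multiplexins, and no short-chain, transmembrane, anchoring or unclassed member passed. The type VI count includes Col6a4, near the detection limit and at 0 in all KO RT libraries. Under a stricter filter on low counts, 10 members fell. Without WT RT replicate 18, which held epididymis transcripts, 7 fell.

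The basement membrane pair fell. In eWAT, CPM of Col4a1 was 1231, 1239, 1476 and 1670.4 in the WT RT libraries, 598, 827, 831 and 874 in KO RT, 1536, 1587, 1649 and 1798 in WT TN and 887, 1131, 1268 and 1364 in KO TN. At RT every KO library was below every WT library, and the lowest value was that of KO RT replicate 10. Col4a1 fell by 0.84 (SE 0.15, adjusted p = 0.00525) on the log2 scale. CPM of Col4a2 was 889, 911, 1034 and 1331 in the WT RT libraries, 361, 549.6, 579.6 and 634 in KO RT, 1042, 1208, 1227 and 1402 in WT TN and 531, 866, 939 and 996 in KO TN. The groups at RT were apart for Col4a2 too, and it fell by 0.97 (SE 0.20, adjusted p = 0.0107). Without WT RT replicate 18, Col4a2 and Col6a3 no longer passed (adjusted p = 0.0538 and 0.058). At TN Col4a1 was again lower in each KO library than in each WT library, but its difference of -0.50 (SE 0.15, adjusted p = 0.124) did not pass.

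The 3 common type VI chains, whose filaments surround adipocytes, fell together. CPM of Col6a1 was 592, 598, 637 and 647 in the WT RT libraries, 206, 239, 265 and 321 in KO RT, 444, 788, 843 and 932 in WT TN and 360.1, 618, 674 and 687 in KO TN. Every KO RT library was below every WT RT library, and the groups overlapped at TN. Col6a1 fell by 1.26 (SE 0.22, adjusted p = 0.00474), Col6a2 fell by 1.17 (SE 0.23, adjusted p = 0.00937) and Col6a3 fell by 0.98 (SE 0.20, adjusted p = 0.0114). CPM of Col6a2 was 539, 595, 613 and 645 in the WT RT libraries, 198, 247, 265 and 352 in KO RT, 421, 741, 778 and 895 in WT TN and 328, 520.0, 589 and 621 in KO TN. CPM of Col6a3 was 149, 154, 184 and 213 in the WT RT libraries, 63.9, 88.1, 94.3 and 109 in KO RT, 182, 236, 241 and 341 in WT TN and 109, 167, 169 and 171 in KO TN. For Col6a2 and Col6a3 as for Col6a1, the KO RT libraries lay under the WT RT libraries. Col6a4 was at 0 in all KO RT libraries and at 0, 0.222, 0.294 and 0.653 CPM in WT RT, at least 3.03-fold lower against a floor of 3 counts per library, and it passed in only 2 of 20 alternatives. The fibril-associated chains, which sit on the surface of fibrils, had the widest differences among members above 1 CPM. CPM of Col16a1 was 29.1, 42.1, 51.7 and 67.9 in the WT RT libraries, 4.09, 6.05, 9.36 and 11.1 in KO RT, 45.9, 59.4, 69.7 and 85.8 in WT TN and 12.3, 26.6, 35.7 and 42.8 in KO TN. Col16a1 fell by 2.64 (SE 0.41, adjusted p = 0.00472), and no KO RT library reached the lowest WT RT library. For Col12a1, with 18.4, 19.0, 30.2 and 40.6 CPM in WT RT and 4.12, 4.33, 4.54 and 8.04 in KO RT, the gap was as clear, and it fell by 2.36 (SE 0.46, adjusted p = 0.0116).

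Among the 8 fibrillar chains tested, Col5a1 and Col5a2 passed. Col5a2 was at 184, 197, 205 and 206 CPM in WT RT and 93.4, 95.7, 97.6 and 108 in KO RT with no overlap, and it fell by 1.00 (SE 0.15, adjusted p = 0.00227). Col5a1 fell by 0.74 (SE 0.18, adjusted p = 0.0236), but was lost without KO RT replicate 10, 16 or 19 or WT RT replicate 15 or 18 (adjusted p up to 0.0876). The major fibre chains did not pass: the difference was -0.99 (SE 0.29, adjusted p = 0.0706) for Col1a1, -0.48 (SE 0.17, adjusted p = 0.11) for Col1a2 and -0.14 (SE 0.17, adjusted p = 0.766) for Col3a1. Col1a1 was nonetheless at 196, 232, 259 and 272 CPM in WT RT and 60.6, 125, 145 and 153 in KO RT, with no overlap. CPM of Col3a1 was 653, 705, 797 and 879 in the WT RT libraries, 619.7, 653, 718 and 767 in KO RT, 946, 966, 1013 and 1609 in WT TN and 785, 841, 1135 and 1162 in KO TN. For Col3a1 the genotypes overlapped at RT. Of the multiplexins, Col18a1 CPM was 266, 297, 321 and 338 in the WT RT libraries, 158, 204, 207 and 215 in KO RT, 296, 313, 337 and 350.3 in WT TN and 234, 328, 338 and 344 in KO TN. The genotypes were apart at RT and overlapped at TN, and Col18a1 fell by 0.64 (SE 0.13, adjusted p = 0.0103) at RT. CPM of Col15a1 was 678, 714, 764 and 840.1 in the WT RT libraries, 417, 539, 570.0 and 736 in KO RT, 634, 699, 718 and 854 in WT TN and 548, 716, 774 and 809 in KO TN. These groups lay closer together, and the difference at RT, -0.41 (SE 0.16, adjusted p = 0.165), did not pass.

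**Figure D4:**
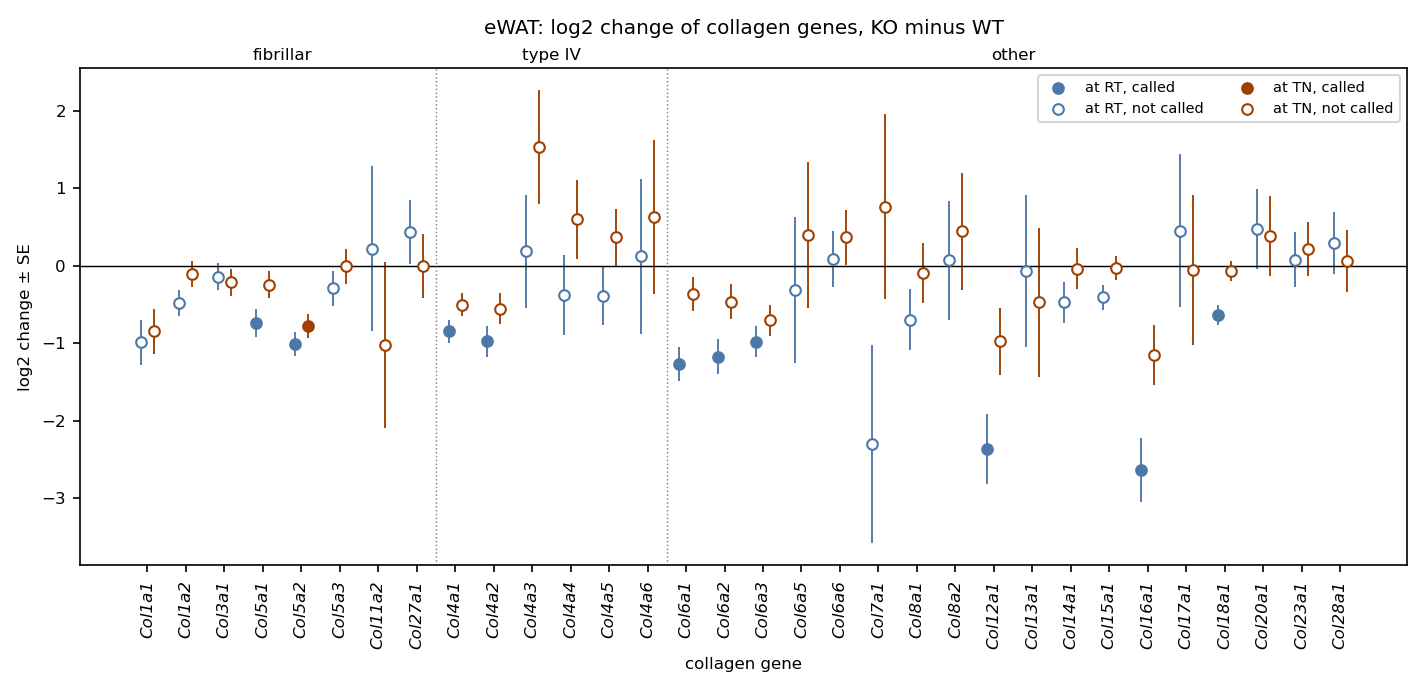
Log2 difference KO minus WT in eWAT (points, with the SE as bars) at RT and at TN for the collagen genes tested, by class, with filled points for genes that passed at an adjusted p under 0.05. At RT the members that passed all lie below 0, Col16a1 and Col12a1 lowest, and at TN Col5a2 alone passed. Col6a4, at 0 in all KO RT libraries, is not drawn.

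At TN, 1 member differed between genotypes in eWAT, where 0.412% of all genes fell. Col5a2 was at 188, 243, 278 and 349.8 CPM in WT TN and 126, 148, 152 and 193 in KO TN, overlapping groups, and it fell by 0.77 (SE 0.15, adjusted p = 0.0401). The call was lost in 9 of the 16 fits that left out 1 library (KO RT replicate 9 or 19, KO TN replicate 3, 5 or 21, WT RT replicate 13 or 15, WT TN replicate 6 or 7) and in the fit of only the 8 libraries compared, and DESeq2 called 4 members lower. The RT and TN differences were not shown to differ from each other: no member passed the test of that difference by edgeR, 6 had an unadjusted p under 0.05, and DESeq2 called none.

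From RT to TN, 7 members rose in KO eWAT and none fell (1.02% and 0.718% of all genes), with a median log2 change of 0.79 against 0.02 over all genes. Those that rose were Col16a1 by 1.94, Col1a1 by 1.33, Col6a1 by 1.18, Col1a2 by 1.15, Col6a2 by 0.95, Col18a1 by 0.66 and Col5a2 by 0.65, with adjusted p from 0.0129 to 0.0428. CPM of Col1a2 was 266, 316, 337 and 362 in the WT RT libraries, 172, 230.0, 235 and 281 in KO RT, 485, 500.1, 565 and 649 in WT TN and 355, 544, 552 and 592 in KO TN, with KO TN replicate 5 the lowest of its group and still above all KO RT libraries. Col1a1 was at 156, 336, 353 and 367 CPM in KO TN, above the KO RT libraries given above. The count rests on single libraries. It was 0 without KO TN replicate 3, 12 without KO TN replicate 5, 1 without KO RT replicate 10 or KO TN replicate 4, 2 without KO RT replicate 19 or KO TN replicate 21, and 4 without WT RT replicate 13 or 18 or WT TN replicate 6 or 7. In WT eWAT no member, and 0% of all genes, passed by edgeR. There 5 members were higher in the warm with an unadjusted p below 0.05, and DESeq2 called Col1a1 and Col1a2. Col1a1 was at 196, 232, 259 and 272 CPM in WT RT and 427, 490.0, 529 and 729.8 in WT TN, without overlap, a change of 1.18 (SE 0.29, adjusted p = 0.281).

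For the genotype difference at RT in eWAT, the summed fibroblast markers were 6673 to 10267 CPM in WT RT and 10428 to 12580 in KO RT, most of it Gsn, and none of the 7 passed between KO and WT at RT by edgeR. Endothelial markers summed to 207 to 584 and 272 to 581 CPM, and 0 of 6 passed. Pericyte and smooth muscle markers summed to 436 to 603 CPM in WT RT and 267 to 457 in KO RT, and of the 7, Acta2 fell with a log2 difference of -1.93 (adjusted p = 0.0167) and the other 6 did not pass. Macrophage markers summed to 307 to 428 CPM in WT RT and 247 to 299 in KO RT, and Cd68, 1 of the 5, was lower in KO with a log2 difference of -0.87 (adjusted p = 0.0485). Hepatocyte transcripts summed to between 40.1 and 1641 in WT RT and between 117 and 4297 in KO RT. From RT to TN in KO eWAT, macrophage markers summed to 403 to 462 CPM in KO TN, above every KO RT library, and Mrc1, Csf1r and Cd163 passed, with log2 changes of 0.63, 0.67 and 0.88, while no fibroblast, endothelial or pericyte marker did. The part of these in the collagen results was not tested.

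In liver 1 member changed. CPM of Col4a1 was 23.9, 24.0, 28.7 and 30.9 in the WT RT libraries, 14.7, 16.8, 18.9 and 20.4 in KO RT, 31.1, 37.6, 40.7 and 47.2 in WT TN and 32.3, 33.2, 33.4 and 33.6 in KO TN. KO RT was the lowest group, its libraries below all others, and KO TN the tightest. From RT to TN in KO mice Col4a1 rose by 0.90 (SE 0.15, adjusted p = 0.0284), where 0.102% of all genes rose. The call was lost without KO RT replicate 9 or 19 or KO TN replicate 4 or 5 (adjusted p up to 0.129), and 2 members passed without KO RT replicate 10 or KO TN replicate 2. DESeq2 called 5 members there, Col1a1, Col4a1, Col6a3, Col14a1 and Col16a1. Between KO and WT at RT no member passed by edgeR (0.0853% of all genes did). There 6 had an unadjusted p under 0.05, and DESeq2 called Col4a1 lower. Between KO and WT at TN no member passed by edgeR or DESeq2, and 1 had an unadjusted p under 0.05, against 3.18% of all genes called by edgeR. From RT to TN in WT no member passed by either, and 3 had an unadjusted p under 0.05 (0.0227% of all genes were called). The type I chains varied widely among TN livers: Col1a1 was at 4.40, 4.87, 5.83 and 12.1 CPM in WT RT, 3.23, 3.77, 4.21 and 5.21 in KO RT, 6.06, 13.9, 34.7 and 40.1 in WT TN and 8.67, 11.4, 15.3 and 35.8 in KO TN. WT TN overlapped WT RT, KO TN did not overlap KO RT, and the changes were 1.80 (SE 0.59, adjusted p = 0.443) in WT and 2.12 (SE 0.60, adjusted p = 0.176) in KO. CPM of Col1a2 was 6.97, 10.0, 13.4 and 18.1 in the WT RT libraries, 7.27, 8.04, 8.65 and 10.0 in KO RT, 7.22, 15.4, 36.6 and 37.0 in WT TN and 10.2, 12.6, 21.0 and 39.0 in KO TN. CPM of Col3a1 was 20.6, 27.2, 29.0 and 43.4 in the WT RT libraries, 13.4, 17.5, 17.7 and 19.1 in KO RT, 14.2, 36.1, 65.3 and 96.7 in WT TN and 27.5, 29.1, 47.7 and 78.6 in KO TN. Both varied among TN livers as Col1a1 did, with changes in KO of 1.29 (SE 0.52, adjusted p = 0.392) for Col1a2 and 1.43 (SE 0.50, adjusted p = 0.309) for Col3a1. Stellate cell markers summed to a median of 87.4 CPM in WT RT, 53.9 in KO RT, 97.3 in WT TN and 83.0 in KO TN, and their part in these values was not tested. Col18a1, the leading liver collagen, did not pass in any comparison. CPM of Col18a1 was 606, 629, 784 and 836 in the WT RT libraries, 578, 649, 848 and 1004 in KO RT, 716, 850.3, 994 and 1017 in WT TN and 592, 598, 649 and 721 in KO TN. All 4 groups overlapped at least 1 other. Other basement membrane chains were far below Col18a1 in liver. CPM of Col4a2 was 17.5, 19.5, 23.7 and 23.8 in the WT RT libraries, 8.93, 9.49, 14.3 and 19.3 in KO RT, 18.0, 24.2, 26.8 and 30.4 in WT TN and 17.7, 20.0, 23.2 and 25.7 in KO TN. CPM of Col15a1 was 6.06, 7.36, 7.91 and 9.03 in the WT RT libraries, 5.47, 6.66, 8.07 and 12.6 in KO RT, 3.47, 5.46, 6.18 and 8.77 in WT TN and 5.00, 5.38, 5.48 and 6.34 in KO TN. Col6a1 ranged from 2.71 to 17.3 CPM over the 16 livers, Col6a2 from 2.48 to 11.6 and Col6a3 from 5.23 to 29.3, and none of these passed.

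Whether an effect was the same in the 3 tissues was tested in the fit of all 48 libraries. For KO against WT at RT, 4 of 38 members differed between tissues, where 2.06% of all genes did: Col4a1 (adjusted p = 0.00121), Col16a1 (0.00631), Col4a2 (0.0139) and Col6a1 (0.0433). The log2 difference of Col4a1 was -0.60 in liver, 0.74 in BAT and -0.84 in eWAT, where eWAT alone passed in the fits by tissue. In BAT the median endothelial marker sum given above was higher in KO RT. It was also higher in KO RT than in WT RT in eWAT (430 against 310 CPM), but not in liver (90.7 against 104). The ranges overlapped in each tissue, and the part of these sums in the Col4a1 differences was not tested. For Col16a1 BAT exceeded eWAT by 2.81. The count was 2 without BAT WT RT replicate 15 or 17, and 0 with the replicate number as a block. For KO against WT at TN no member differed by edgeR, against 0.904% of all genes, and 1 had an unadjusted p under 0.05. The housing effect, as the mean of WT and KO, differed between tissues for 7 of 38 members, against 18.3% of all genes, a share at the background. These were Col15a1, Col18a1, Col5a1, Col28a1, Col5a3, Col4a1 and Col3a1, and for each of them the change was largest in BAT.

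Chains that share a molecule kept different ratios. The ratio of Col1a1 to Col1a2 in CPM per kb was 1.41 ± 0.0306 in WT RT eWAT (SD, n = 4), 0.974 ± 0.216 in KO RT, 1.86 ± 0.199 in WT TN and 1.10 ± 0.189 in KO TN. The KO ranges, 0.666 to 1.17 and 0.832 to 1.28, lay below the WT ranges, 1.39 to 1.46 and 1.66 to 2.13. In liver the ratio was 1.05 ± 0.213 in WT RT and 1.79 ± 0.197 in WT TN, and 0.912 ± 0.105 and 1.63 ± 0.377 in KO, with TN above RT in every library of each genotype. In BAT it was 1.02 ± 0.218, 1.44 ± 0.184, 1.30 ± 0.151 and 1.28 ± 0.171 in WT RT, KO RT, WT TN and KO TN. The ratio of Col4a1 to Col4a2 in BAT was 1.05 ± 0.0785 in WT RT and 1.34 ± 0.0826 in WT TN, with no overlap, and stayed between 1.20 ± 0.0750 and 1.33 ± 0.139 in the eWAT groups. Col6a1 to Col6a2 was 1.86 ± 0.104 to 2.16 ± 0.0781 across the eWAT groups. These ratios are descriptions and were not tested, and the lengths are of all annotated exons, so the level of a ratio depends on the gene model.

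**Figure D5:**
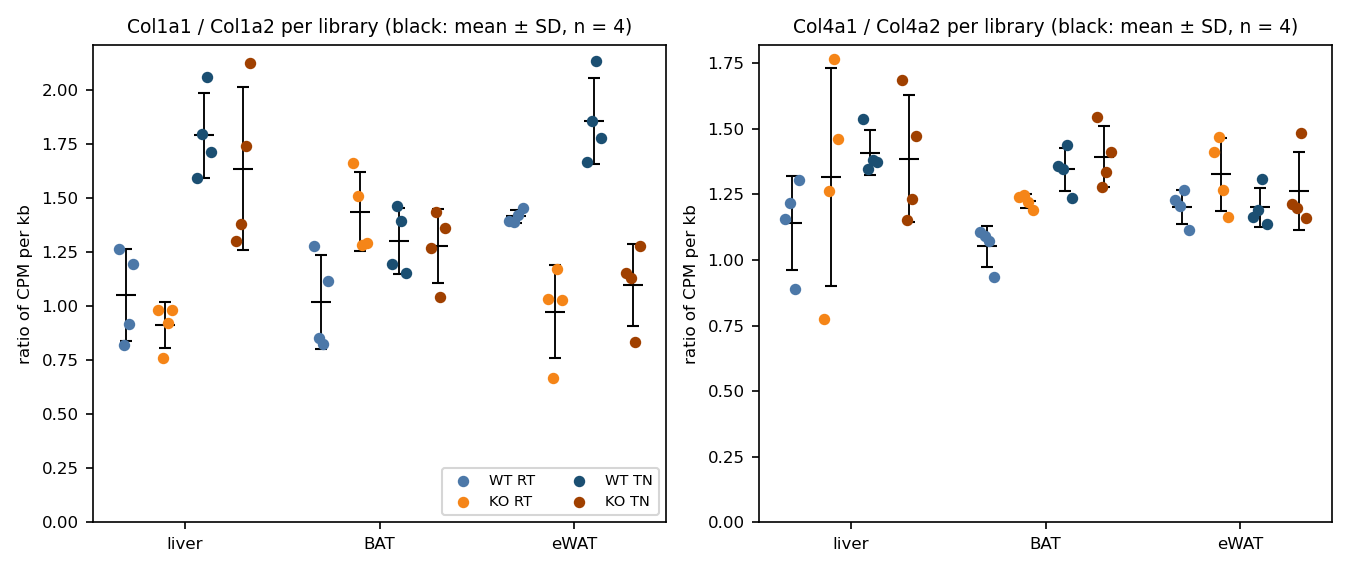
Ratio of Col1a1 to Col1a2 (left) and of Col4a1 to Col4a2 (right), each in CPM per kb of exon, in every library (points) by tissue and group, with the mean and SD of 4 libraries in black. In eWAT the Col1a1 to Col1a2 ratio of every KO library lies below that of every WT library.

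Genes that process, bind or degrade collagen were followed as 5 lists. In BAT of WT mice, from RT to TN, 19 of 33 genes tested of collagen processing and crosslinking rose and 1 fell (15.9% and 16.7% of all genes), with a median log2 change of 0.68 against 0.11 over all genes. Adamts2, the protease that trims procollagen ends, rose by 1.99, the folding aid Fkbp10 by 1.52 and the crosslinking oxidase Loxl2 by 1.22. Mia2, a cargo receptor for collagen export, fell by 0.42. Of 10 genes of collagen breakdown and uptake 8 rose, Mmp14 by 1.68 and the lysosomal protease Ctsk by 1.45. Of 8 collagen receptors 3 rose, with 1.02 for Ddr2. Of 12 fibril-binding proteoglycans and glycoproteins 9 rose, by 5.84 for Tnc and 1.43 for Bgn, and of 14 other basement membrane components 10 rose, by 2.05 for Nid2 and 1.88 for Lama5. In KO mice, where 6.64% of all genes rose, 11, 7, 2, 7 and 6 genes of these lists rose in the same order, and Loxl1, a crosslinking oxidase, fell by 1.20. In eWAT at RT, KO against WT, the counts that fell were 7 of 34, 2 of 10, 0 of 8, 4 of 12 and 3 of 15, against 3.13% of all genes, and none rose. Among them were the collagen chaperone Serpinh1 by 0.66, the procollagen enhancer Pcolce2 by 2.26, the collagen uptake receptor Mrc2 by 3.94, the matrix protein Sparc by 1.27 and the basement membrane proteoglycan Hspg2 by 1.05. At TN in eWAT, where 0.412% of all genes fell, Lox, Ctsk, Bgn, Sparc and Lamb3 were lower in KO, by 1.24, 1.04, 0.90, 0.88 and 1.35. From RT to TN in KO eWAT 2, 1, 1, 4 and 3 genes of the lists rose (1.02% of all genes) and none fell. In liver Mia2 and Lamb3 were lower in KO at TN, by 0.47 and 1.08, where 1.85% of all genes were lower. They were 1 of 31 genes tested of collagen processing and crosslinking and 1 of 15 other basement membrane components. No other gene of the 5 lists passed in liver.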

How the data were processed

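Bulk RNA-seq of liver, BAT and eWAT was measured in 48 libraries, 4 per tissue, genotype and temperature, grouped by the labels. The deposited files hold raw counts per gene; per the submitters' processing notes the authors used fastp, STAR 2.6.1d and featureCounts 1.5.0-p3 on GRCm38/mm10. The annotation release and strand setting are not given in the sources used here, so reads of overlapping exons cannot be told apart. Exons of other genes cover at most 6.07% of a member's exons. Symbols were matched for 52073 identifiers.

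The median depth was 29.9 M counts for liver libraries, 30.7 M for BAT libraries and 34.5 M for eWAT libraries. In R 4.3.3, edgeR 4.0.16 with limma 3.58.1 was used: genes passed filterByExpr with a minimum count of 10, libraries were scaled by TMM, and a robust quasi-likelihood model with the 4 group means was fitted to the 16 libraries of a tissue. A second fit covered all 48 libraries for differences between tissues. Benjamini-Hochberg adjustment ran over all genes tested, with a threshold of 0.05. Lengths are of annotated exons. The fits were tested on simulated data, with 200 genes changed per tissue in a simulated contrast of TN with RT in WT. Of genes changed 3-fold, 51% were recovered in BAT, 56% in eWAT and 59% in liver. Recovery can differ in contrasts with many more changed genes.

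Named with their values were 10 members in each tissue (Col1a1, Col1a2, Col3a1, Col4a1, Col4a2, Col6a1, Col6a2, Col6a3, Col15a1, Col18a1) and, in each comparison, up to 8 called members per direction with a mean of at least 1 CPM. Type VI chains in liver are given by their range, and members named beyond the rule were chosen after their values were seen. Some marker genes are not reported here. The members and gene lists were chosen with earlier results of these data known. Alternatives were RLE scaling, other filters, DESeq2 1.42.0, fits of only the libraries compared, a replicate block, leaving out each library and, added after seeing the data, leaving out libraries in doubt and a muscle covariate.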

Additional observations from a re-analysis of the deposited data

Results flagged for a closer look

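In groups of 4 libraries, the highest or lowest library was looked for that stood apart from the other 3 by Dixon's criterion (the gap to the nearest library as a share of the range). Of 188 groups looked at, over named genes and class sums, 12 held such a library, 6.38%, where chance gives about 1 in 20.

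Most of these were in fat. In eWAT, KO TN replicate 5 was low for Col1a1 (156 CPM, the others 336 to 367), Col6a3 (109 CPM, the others 167 to 171) and Col18a1 (234 CPM, the others 328 to 344). KO RT replicate 10 was low for Col4a1 (598 CPM, the others 827 to 874) and for the summed type IV genes (970.3 CPM, the others 1421 to 1484). KO RT replicate 9 was high for Col12a1 (8.04 CPM, the others 4.12 to 4.54), and WT TN replicate 8, the library with the fewest mesothelial transcripts, was high for Col3a1 (1609 CPM, the others 946 to 1013).

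In BAT, KO TN replicate 2, which is rich in muscle transcripts, was high for Col15a1 (86.7 CPM, the others 47.1 to 50.6). KO RT replicate 9 was high for Col18a1 (19.0 CPM, the others 9.88 to 10.6). WT RT replicate 12, with the highest endothelial marker sum of its group, was high for Col8a1 (4.07 CPM, the others 1.74 to 2.08). The summed fibrillar genes were low in WT RT replicate 15 (325 CPM, the others 386 to 389). In liver, WT TN replicate 1 was low for the same sum (253 CPM, the others 357 to 373). The part of library makeup in these values was not tested.

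The effect of the genotype at RT differed between the tissues, by edgeR's test of the difference, for Col4a1 (adjusted p = 0.00121), Col4a2 (adjusted p = 0.0139), Col6a1 (adjusted p = 0.0433) and Col16a1 (adjusted p = 0.00631). The effect in BAT exceeded that in eWAT by 1.58, 1.48, 1.49 and 2.81 on the log2 scale. These were 4 of 38 members, where 2.06% of all genes differed. With the replicate number as a block 0 members differed.

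The effect of housing differed between the tissues for Col15a1 (adjusted p = 2.51e-08), Col18a1 (adjusted p = 3.16e-06), Col5a1 (adjusted p = 2.48e-05), Col28a1 (adjusted p = 0.000293), Col5a3 (adjusted p = 0.00161), Col4a1 (adjusted p = 0.00454) and Col3a1 (adjusted p = 0.011). It was larger in BAT than in liver by 1.99 for Col15a1, 1.49 for Col18a1, 1.08 for Col5a1, 2.78 for Col28a1, 1.51 for Col5a3, 0.48 for Col4a1 and 0.73 for Col3a1. These 7 of 38 members are a share at the background, as 18.3% of all genes were so called.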

How the results depend on the processing

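The called members named by the rule above, and Agt in liver, kept their direction under every alternative run. A reversal was looked for in these only. Under alternatives other than leaving out 1 library, 96 counts stayed within 1.5 times the main count and 12 did not. With 1 library left out, 498 did and 30 did not. In BAT, the housing counts ranged from 18 to 24 in WT and from 11 to 15 in KO over the libraries left out. KO against WT at RT gave 0 in BAT by edgeR but 2 with DESeq2, 1 without a filter on low counts, 4 without the libraries in doubt, and 0 to 7 with 1 library left out (7 without WT RT replicate 12, 1 without WT TN replicate 24). In eWAT, the count of 11 for KO against WT at RT became 7 without the libraries in doubt and 7 to 11 with 1 left out (7 without WT RT replicate 18). At TN the count of 1 became 4 with DESeq2, 0 with only the 8 libraries compared, and 0 to 1 with 1 left out. For TN against RT in KO, 7 became 15 with DESeq2, 0 with only the 8 libraries, and 0 to 12 with 1 left out; in WT, 0 became 2 with DESeq2. In liver, KO against WT at RT gave 1 with DESeq2 in place of 0, and TN against RT in KO gave 5 with DESeq2 in place of 1, and 0 to 2 with 1 left out. The cause of these shifts was not tested.

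Over 35 pairs of same-numbered libraries of different tissues, the median correlation of their deviations from the group means was 0.016 and 1 pair was over 0.1. This cannot tell whether such libraries came from the same animal, as different tissues of an animal need not deviate together. The labels do not say so either, and no number was used in more than 1 genotype or temperature. With the number as a replicate block, 31, 24 and 27 members differed for eWAT against liver, BAT against liver and BAT against eWAT, and 6 in their housing effect. The genotype effect at RT then differed between tissues for 0 in place of 4 members. Without the block, it differed for 2 to 5 members with 1 library left out. Within a tissue no paired analysis was possible because the groups compared share fewer than 2 replicate numbers.

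With 4 libraries a group, changes near 2-fold were often missed on simulated data (24% recovered in BAT), and members under 1 CPM rest on few counts. The BAT simulation changed 200 of 18032 genes. In the real contrast of TN with RT in WT BAT, 32.5% of genes were called, so recovery there can differ. Col12a1, Col4a5, Col6a6 and Col4a4 in WT BAT passed in 15, 8, 16 and 17 of 23 alternatives, and Col4a2 in KO BAT in 16.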

Other observations

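Values of several minor chains are given here by group. Col6a5, a type VI chain, was at 24.6, 29.3, 47.5 and 52.3 CPM in KO RT eWAT and at 27.1, 27.6, 60.6 and 75.0 in WT RT eWAT, while no liver or BAT library passed 1 CPM. In WT TN eWAT it was at 63.2, 80.4 and 102 CPM in 3 libraries and at 0.280 in replicate 8. In the same library Col6a6, its neighbour in the type VI group, was at 5.87 CPM against 20.5 to 25.2 in the others, and Col3a1 was at 1609 CPM. This library also held 2.04 summed CPM of mesothelial markers. The part of this in the values was not tested.

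Col14a1, a fibril-associated chain, was at 33.9 to 53.9 CPM in WT RT liver and 43.2 to 65.6 in WT RT eWAT, but at 2.85 to 11.8 in WT RT BAT. Col13a1, a transmembrane chain, had the reverse layout for fat, at 1.91 to 4.04 CPM in KO RT BAT and 0.0681 to 0.699 in KO RT eWAT. Col7a1, the anchoring fibril of skin, was at 3.72 to 6.39 CPM in KO RT BAT and 1.25 to 4.07 in WT RT BAT. Col17a1, a hemidesmosome chain, was at 0.168 to 0.716 CPM in KO RT eWAT and at 0 in 3 of 4 KO RT libraries of both liver and BAT.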
